A study of Mus musculus with 4 samples.

Results

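The genes described here are those of the mouse major histocompatibility complex (MHC, called H2 in the mouse) and of antigen presentation. They were taken from a table of 27179 genes by symbol: every gene whose symbol starts with H2- and a capital letter, plus B2m, Tap1, Tap2, Tapbp, Tapbpl, Nlrc5, Ciita, Cd74, Erap1, Cd1d1, Mr1, Rfx5, Cd80, Cd86 and Cd274. This gave 53 genes, 38 by H2 symbol and 15 by name, of which 41 lie on chromosome 17. Rows were taken by symbol alone, but the symbols and names were chosen with earlier results of these data known. Of the 53, 37 had a mean normalized count of at least 10 over the libraries and were tested, and 16 lay below that limit. A further 12 H2 symbols of the RefSeq gene table had no row and were not analysed here. One gene that the symbol rule takes in, H2-Ke6, encodes a hydroxysteroid dehydrogenase and not an MHC molecule, and it is kept apart from both classes.

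The study sequenced mRNA of mouse kidney medulla, collected at postnatal day 14, in 4 libraries, 2 labelled Actr3 KO and 2 labelled Actr3 WT. The KO mice carried Actr3-fl/fl together with Cdh16-Cre, and the controls are labelled as wild type without any named allele. The strain of both groups is given as C57BL/6 mixed. Actr3 is the gene of Arp3, a part of the Arp2/3 complex through which cells build branched actin networks, and Cdh16 is a cadherin of kidney tubule epithelium. The promoter of Cdh16 is used to drive Cre in tubule cells, so immune, endothelial and stromal cells of the medulla are not its intended targets. Every animal of both groups was juvenile, and the H2 haplotype that the mixed background carried is not given in the sources used here.

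Normalized counts of the targeted gene went against the labels. Actr3 read 8065 and 7275 in the libraries labelled WT and 12587 and 12480 in those labelled KO, 0.71 apart on the log2 scale (limma adjusted p = 0.000494, SE 0.0820). The counts cover the whole gene, including exons that Cre leaves in place. The groups are therefore called WT-labelled and KO-labelled throughout, and every direction below rests on those labels. The libraries held 36482238 to 40784436 reads assigned to genes. Each value is a normalized count, that is, the reads of a gene divided by 1 size factor per library. The titles number 2 samples in each group and do not say how many animals each came from. The limma p-values rest on the spread between these libraries, with the variance of each gene drawn in part from other genes.

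MHC class I molecules are made by most cells with a nucleus: a polymorphic heavy chain pairs with the light chain beta2-microglobulin (B2m) and displays peptides, which the transporter Tap1-Tap2 brings into the endoplasmic reticulum, to CD8 T cells. MHC class II molecules are heterodimers of an alpha and a beta chain, made mainly by dendritic cells, macrophages and B cells, and display peptides from endosomes to CD4 T cells. The transactivator Nlrc5 drives class I genes and its relative Ciita drives class II genes, both through a complex that contains Rfx5. In the kidney, resident macrophages and dendritic cells are known as the main class II-positive cells, and interferon-gamma can induce class II in tubule cells.

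The heavy chain genes of class I are near-copies of each other, which bears on every count given for them. To show this, the first 90 bases of coding exon 4 of H2-K1 (chr17:33997471-33997560 on the minus strand, GRCm38), which encodes the start of the domain that contacts B2m and CD8, are printed with the matching stretch of 7 relatives, taken from the GENCODE M21 transcripts. Capitals mark bases that differ from H2-K1.
H2-K1: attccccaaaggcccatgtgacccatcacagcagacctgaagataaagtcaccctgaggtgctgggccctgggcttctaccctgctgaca
H2-D1: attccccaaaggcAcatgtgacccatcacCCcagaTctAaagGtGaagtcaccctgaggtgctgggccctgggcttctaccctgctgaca
H2-T23: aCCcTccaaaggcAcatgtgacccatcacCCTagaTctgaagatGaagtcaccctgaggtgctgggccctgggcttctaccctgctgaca
H2-T22: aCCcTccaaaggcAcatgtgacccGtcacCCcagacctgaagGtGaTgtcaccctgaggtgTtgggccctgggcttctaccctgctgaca
H2-Q6: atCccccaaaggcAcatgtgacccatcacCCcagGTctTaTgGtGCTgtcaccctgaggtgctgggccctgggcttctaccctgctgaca
H2-Q7: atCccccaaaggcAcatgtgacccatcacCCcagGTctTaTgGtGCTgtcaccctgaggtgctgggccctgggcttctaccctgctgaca
H2-Q4: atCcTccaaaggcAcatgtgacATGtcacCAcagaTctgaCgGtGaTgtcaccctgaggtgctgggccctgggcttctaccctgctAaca
H2-M3: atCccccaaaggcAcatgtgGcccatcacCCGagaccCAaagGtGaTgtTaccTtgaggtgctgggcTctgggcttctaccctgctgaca

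Over these bases H2-D1 differed from H2-K1 at 7 positions (92.2% identity), H2-T23 at 9 and H2-M3 and H2-Q4 at 14 (84.4%), while H2-Q6 and H2-Q7 had the same sequence. Over whole transcripts, 53.5% of the 50-base words of H2-T22 and 50.4% of those of H2-T10 also occurred in another gene model, mostly in each other. The share was 36.4% for H2-Q4, 35% for H2-Q6 and 26.5% for H2-Q7, against 12.8% for H2-D1, 9.63% for H2-K1 and 3.17% for H2-T24. It was 22.7% for H2-DMb1 and 25.9% for H2-DMb2, and 0% for B2m, Cd74, H2-Ab1, H2-Eb1, Cd80 and Cd86. Words of Tapbp (20.3%, with Gm19412), Erap1 (10.7%, with Cast) and H2-DMa (8.43%, with Brd2) were also shared with 1 main other model each. How reads that fit several genes were counted is not given in the sources used here, so counts of H2-T22, H2-T10 and the H2-Q genes can hold reads of each other.

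Across the 37 tested genes, 21 were called higher in the KO-labelled libraries and 2 lower (limma on log2(value + 1), adjusted p under 0.05 over 16253 genes). Among all genes tested, 26.3% were called higher, 24.9% lower and 51.2% in either direction. The median log2 difference of the tested members was 0.59, against 0.0029 for all genes tested, and 29 of the 37 were positive. In 24 members both KO-labelled libraries lay above both WT-labelled ones, which held for 39.8% of all genes, and in 7 both lay below, which held for 38.7%. Of the 21 genes called higher, H2-Q10, H2-Oa and Cd80 had WT-labelled means under 10 and passed the filter only through the KO-labelled group. The summed normalized count of all 53 genes was 68426 and 47424 under the WT label and 95306 and 81968 under the KO label, or 0.172%, 0.118%, 0.244% and 0.213% of each library's total. With all libraries the median was 1.05 for class II chains and loading genes and 0.39 for class I heavy chains. Leaving out the second WT-labelled library gave 0.55 and 0.21, and leaving out the first gave 1.72 and 0.52. Without a variance trend in the fit 13 were higher, against 21.1% of all genes in that fit. The calls of H2-K1, H2-D1, B2m, H2-M3, H2-T22, Tap1, H2-Ab1, Cd74 and H2-DMb1 were lost there.

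**Figure D1:**
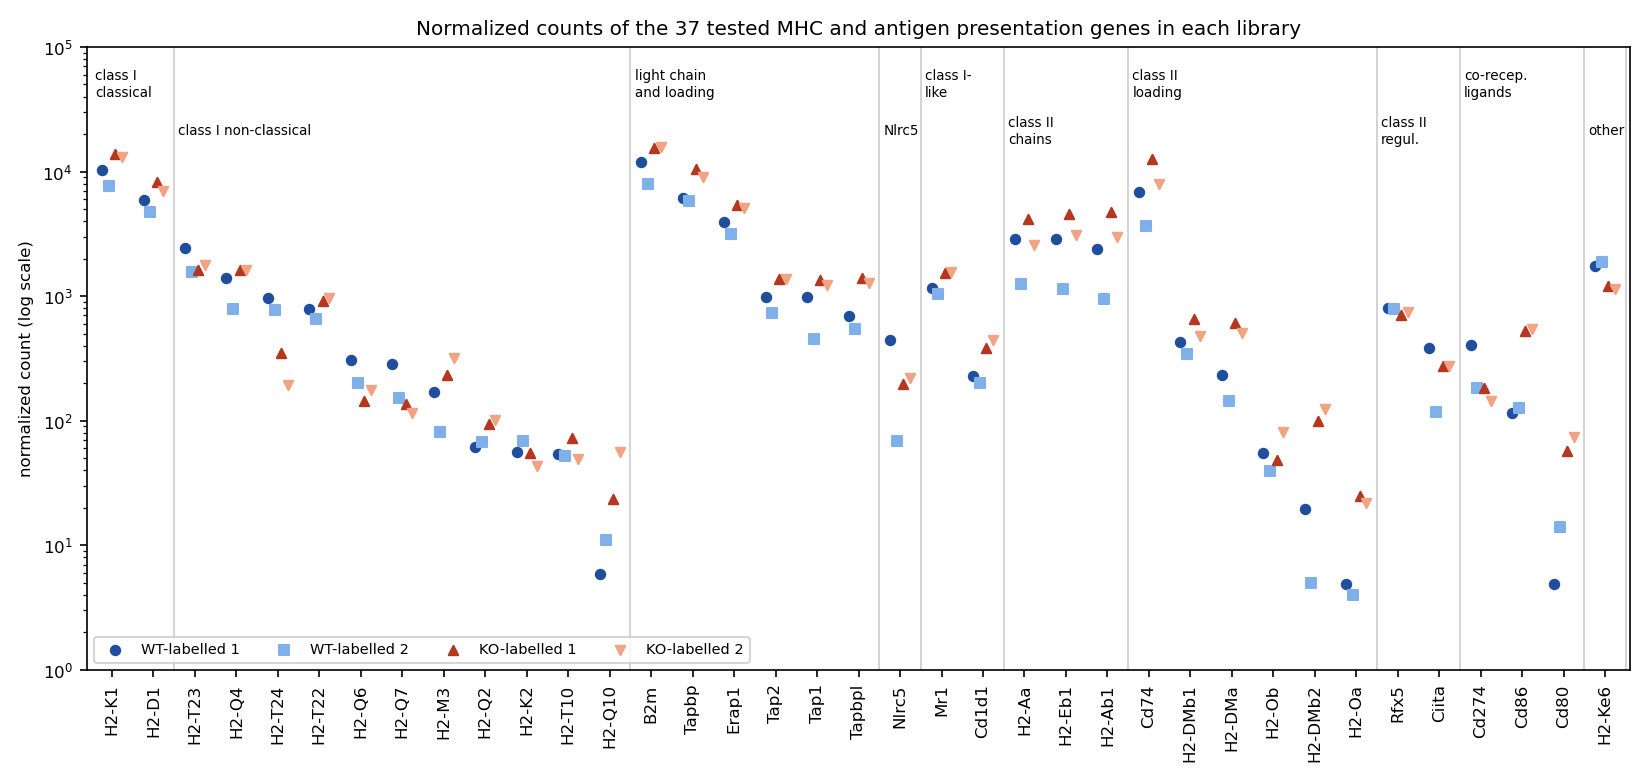
Normalized count (log scale) of each of the 37 tested genes in each of the 4 libraries, grouped by role; every point is 1 library. The KO-labelled triangles lie above both WT-labelled points for 24 genes, and the 2 WT-labelled points of Nlrc5 lie on either side of both KO-labelled ones.

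The classical class I heavy chains, which present peptides to CD8 T cells, were both higher in the KO-labelled libraries. H2-K1 (chr17:33996012-34000619) read 10224 and 7701 normalized counts in the WT-labelled libraries against 13795 and 13004 in the KO-labelled ones. This was a 1.5-fold difference (log2 0.59, SE 0.133, adjusted p = 0.00910), and the groups did not overlap. H2-D1 (chr17:35263094-35267497) read 5954 and 4757 against 8271 and 7006, 1.43-fold higher (log2 0.52, SE 0.129, adjusted p = 0.0142). Its groups were also separate, but the call was lost without the second WT-labelled library (log2 0.35, adjusted p = 0.0670) and without the first KO-labelled one (log2 0.40, adjusted p = 0.0670).

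The non-classical heavy chains did not move as a group. Of 25 such genes 11 were tested, of which 3 were higher, 1 was lower and 7 did not pass, with a median log2 difference of 0.17. H2-Q10, among the 3, passed the filter only through the KO-labelled group. Over all genes tested, 26.3% were called higher and 24.9% lower, so the share called higher was near that of all genes. Their summed count was 6554 and 4435 under the WT label and 5279 and 5426 under the KO label, so the groups overlapped. The whole set of 27 heavy chains, 13 of them tested, had 5 higher and 1 lower with a median of 0.39, and its sum was 1.33-fold higher.

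The largest fall among the tested members was in H2-T24 (chromosome 17), a non-classical heavy chain gene. It read 964 and 777 normalized counts in the WT-labelled libraries against 350 and 194 in the KO-labelled ones. Both KO-labelled values lay far below both WT-labelled ones, 3.20-fold lower in the mean (log2 -1.73, SE 0.272, adjusted p = 0.00197). The fall passed the test with each library left out in turn, with log2 differences from -2.15 to -1.31. Of its 50-base words 3.17% were shared with other models, against 14.5% for its neighbour H2-T23.

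H2-M3, which presents N-formylated peptides of bacteria and mitochondria, read 170 and 81.5 against 234 and 321, 2.2-fold higher (log2 1.21, SE 0.355, adjusted p = 0.0262). The call did not hold without the second WT-labelled library (log2 0.68, adjusted p = 0.0945) or without the second KO-labelled one (log2 0.98, adjusted p = 0.0876). H2-T22, a ligand of gamma-delta T cells that binds no peptide, read 792 and 650 against 907 and 969 (log2 0.39, SE 0.130, adjusted p = 0.0429). Its adjusted p rose to 0.185, 0.0873 and 0.162 without the second WT-labelled, the first KO-labelled and the second KO-labelled library, whereas with the first WT-labelled library left out it was still called (log2 0.53, adjusted p = 0.0276). H2-Q10, known as a secreted heavy chain of the liver, read only 5.91 and 10.9 against 23.6 and 56.5, 4.76-fold higher (log2 2.05, SE 0.549, adjusted p = 0.0186). Without the first WT-labelled library its difference was 1.66 (adjusted p = 0.0859), and without the second KO-labelled one 1.44 (adjusted p = 0.0949).

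Among the 7 heavy chains that did not pass, the directions were mixed. H2-T23, whose product Qa-1 is a ligand of NKG2 receptors of NK cells, read 2425 and 1548 against 1612 and 1768 (log2 -0.20, adjusted p = 0.426), with overlapping groups. Its sign depended on which WT-labelled library was kept: the difference was 0.13 (adjusted p = 0.412) without the first and -0.52 (adjusted p = 0.0155) without the second. H2-Q4 read 1403 and 795 against 1624 and 1615 (log2 0.62, adjusted p = 0.0651), and 1.02 (adjusted p = 0.00187) without the first WT-labelled library.
H2-Q6 and H2-Q7, which encode Qa-2 molecules, pointed the other way. H2-Q6 read 309 and 201 against 143 and 177 (log2 -0.65, adjusted p = 0.0683). H2-Q7 read 286 and 151 against 136 and 115 (log2 -0.73, adjusted p = 0.0908). Without the second WT-labelled library both passed, at -0.96 (adjusted p = 0.0301) and -1.18 (adjusted p = 0.0163).
H2-Q2 read 61.1 and 67.6 against 93.3 and 102 (adjusted p = 0.0755). The RefSeq pseudogenes H2-K2 (56.1 and 68.6 against 54.7 and 43.3) and H2-T10 (54.2 and 51.7 against 72.9 and 49.0) had adjusted p of 0.353 and 0.657. The difference of H2-T10 was 0.17, and -0.11 without the first KO-labelled library.

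Sums over near-identical genes do not depend on how reads were split within the sum. H2-Q6 and H2-Q7 together read 595 and 352 under the WT label and 279 and 292 under the KO label, 1.66-fold lower. All 6 H2-Q genes of the set, H2-Q1 below the filter included, together read 2065 and 1227 against 2022 and 2065, which overlap. H2-T22 and H2-T10 together read 846 and 702 against 980 and 1018, 1.29-fold higher. All 5 H2-T genes of the set, H2-T3 below the filter included, gave 4235 and 3028 against 2943 and 2981, the KO-labelled values both lower. Of this sum H2-T24, which shared only 3.17% of its 50-base words, made up 964 and 777 against 350 and 194. The lower sum is therefore not a fall of the H2-T genes as near-copies. H2-K1 and H2-D1 together read 16178 and 12459 against 22066 and 20010, 1.47-fold higher, a difference close to that of each gene alone.

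**Figure D2:**
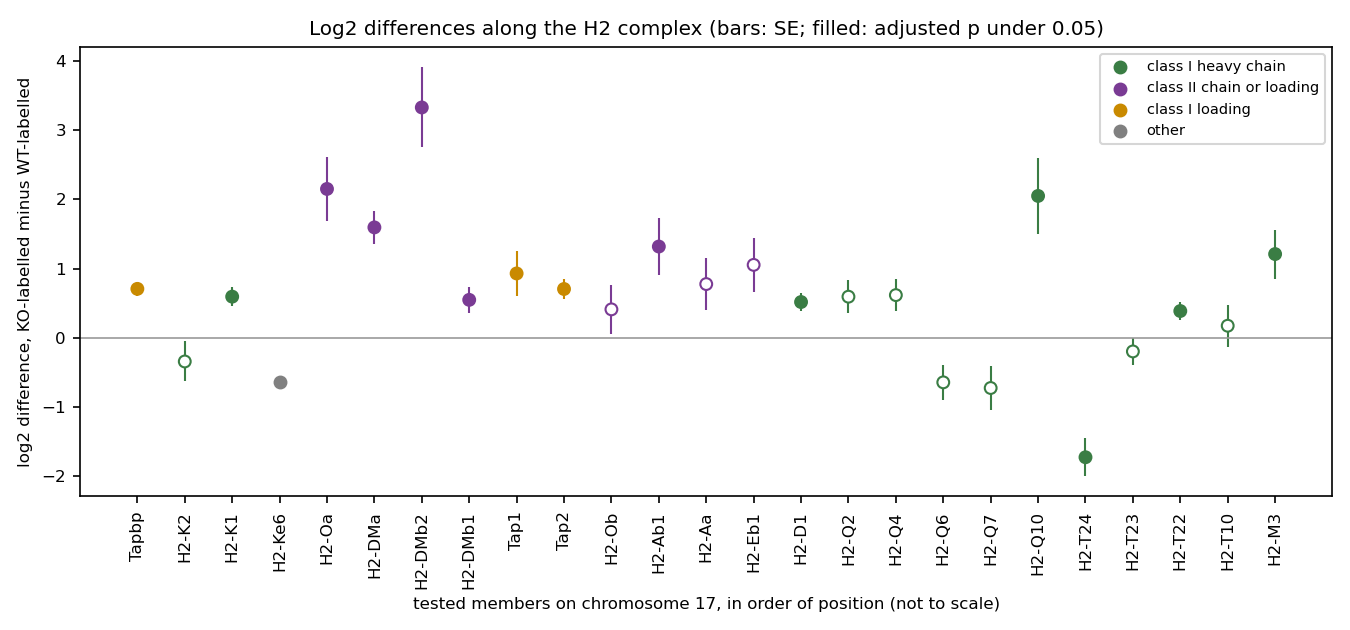
Log2 difference, KO-labelled minus WT-labelled, of the 25 tested members on chromosome 17 in order of position (not to scale), with bars for the SE and filled points where the adjusted p was under 0.05. The class II loading genes and the classical heavy chains lie above 0, whereas the H2-Q and H2-T genes lie on both sides and H2-T24 is lowest at -1.73.

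The light chain and the loading machinery of class I were higher without exception: all 6 genes passed, with a median log2 difference of 0.71, and in each the groups were separate. Over all genes tested, 26.3% were called higher, and in 39.8% both KO-labelled libraries lay above both WT-labelled ones. B2m (chr2:122147687-122153082), the light chain of all class I molecules, read 11935 and 7923 in the WT-labelled libraries against 15366 and 15655 in the KO-labelled ones, 1.56-fold higher (log2 0.67, SE 0.174, adjusted p = 0.0163). Tapbp (tapasin), which bridges the transporter to empty class I molecules, read 6115 and 5809 against 10537 and 8978, 1.64-fold higher (log2 0.71, SE 0.0963, adjusted p = 0.00103). Its relative Tapbpl, a peptide editor that works outside the loading complex, rose most: 697 and 545 against 1406 and 1270, 2.15-fold (log2 1.12, SE 0.143, adjusted p = 0.000790).
Erap1, which trims peptides in the endoplasmic reticulum, read 3967 and 3153 against 5410 and 5105, 1.48-fold higher (adjusted p = 0.00618). Tap2 read 983 and 731 against 1380 and 1383, 1.61-fold higher (adjusted p = 0.00701). Its partner Tap1 read 993 and 455 against 1345 and 1221, 1.77-fold higher (log2 0.93, SE 0.319, adjusted p = 0.0453). The 2 WT-labelled libraries differed 2.18-fold for Tap1, and its call was lost without the second WT-labelled (log2 0.37, adjusted p = 0.0627), the first KO-labelled (log2 0.86, adjusted p = 0.102) or the second KO-labelled library (log2 1.00, adjusted p = 0.0572).

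Nlrc5 (chr8:94434335-94527272), the transactivator of class I genes, had no direction of its own. It read 441 and 68.6 under the WT label and 195 and 220 under the KO label, so the 2 WT-labelled values enclosed the KO-labelled pair (log2 0.25, SE 0.737, adjusted p = 0.797). Without the first WT-labelled library the difference was 1.58 (adjusted p = 0.00673), and without the second it was -1.085 (adjusted p = 0.0119).

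The class I-like molecules that present ligands other than peptides were both higher. Cd1d1, which presents lipids to NKT cells, read 230 and 202 against 383 and 442, 1.91-fold (log2 0.93, SE 0.165, adjusted p = 0.00338). Mr1, which presents vitamin B metabolites to MAIT cells, read 1170 and 1035 against 1524 and 1571, 1.40-fold (log2 0.49, SE 0.101, adjusted p = 0.00647). Of the 50-base words of Cd1d1, 19.1% also occurred in its copy Cd1d2, and Mr1 shared 0%.

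The tested class II chains had a median log2 difference of 1.05, against 0.39 for the tested class I heavy chains, and a larger median difference between the WT-labelled replicates, 1.34 against 0.32. H2-Ab1 (chr17:34263227-34269418), the beta chain of I-A, read 2384 and 941 in the WT-labelled libraries against 4704 and 2971 in the KO-labelled ones, 2.31-fold higher (log2 1.32, SE 0.408, adjusted p = 0.0320). Its call was lost without the second WT-labelled library (log2 0.65, adjusted p = 0.0997) and without the first KO-labelled one (log2 0.99, adjusted p = 0.0985), and its difference was 1.99 without the first WT-labelled one. H2-Eb1, the beta chain of I-E, read 2881 and 1140 against 4549 and 3112 (log2 1.05, SE 0.395, adjusted p = 0.0602). It did not pass although the groups were separate. H2-Aa (chr17:34282744-34287823), the alpha chain of I-A, read 2873 and 1249 against 4126 and 2552 (log2 0.78, SE 0.379, adjusted p = 0.128), and here the first WT-labelled library lay above the second KO-labelled one.
H2-Aa and H2-Eb1 passed without the first WT-labelled library (log2 1.38, adjusted p = 0.0134, and log2 1.72, adjusted p = 0.00340) and without the second KO-labelled one (log2 1.12, adjusted p = 0.0416, and log2 1.33, adjusted p = 0.0318). The summed count of the class II chains was 8141 and 3332 against 13389 and 8647, 1.92-fold higher.
H2-Ea, the alpha chain of I-E, had 0 reads in every library, which allows 3 reads at most, or 0.0736 to 0.0822 CPM; it is a pseudogene in RefSeq and C57BL/6 mice are known to make no I-E. H2-Eb2, the other low class II chain, had 3 and 1 reads against 9 and 13.

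Most of the class II loading genes rose, with 5 of 6 called higher, against 26.3% of all genes, and a median log2 difference of 1.30. H2-Oa, among these 5, passed the filter only through the KO-labelled group. Cd74, the invariant chain that fills the groove of new class II molecules, read 6822 and 3623 under the WT label and 12649 and 7904 under the KO label, 1.97-fold higher (log2 1.01, SE 0.313, adjusted p = 0.0323). Its values followed the order of H2-Ab1 and H2-Eb1 over the libraries, and its call was likewise lost without the second WT-labelled library (log2 0.55, adjusted p = 0.150) and without the first KO-labelled one (log2 0.67, adjusted p = 0.110).
H2-DM removes the invariant chain fragment and edits the bound peptide. Its alpha chain H2-DMa read 232 and 145 against 612 and 507, 2.96-fold higher (log2 1.60, SE 0.242, adjusted p = 0.00168), and passed with each library left out. Its beta chain gene H2-DMb2 went from 19.7 and 4.97 to 98.7 and 124, 9.04-fold higher (log2 3.33, SE 0.579, adjusted p = 0.00306). That was the largest rise among the tested members; it passed with each library left out, at log2 2.43 without the second WT-labelled one and 4.23 without the first.
The neighbouring beta chain gene H2-DMb1 read 425 and 341 against 650 and 478, only 1.47-fold higher (log2 0.55, SE 0.193, adjusted p = 0.0494). With libraries left out in turn, it stayed called in 1 case, without the second KO-labelled library (log2 0.77, adjusted p = 0.0179). Without the first WT-labelled, second WT-labelled and first KO-labelled libraries its adjusted p was 0.0579, 0.218 and 0.266. H2-DMb1 and H2-DMb2 together read 445 and 346 against 749 and 602, 1.71-fold higher, and H2-DMb2 made up the smaller part of that sum in all 4 libraries.
H2-DO inhibits H2-DM. Its alpha chain H2-Oa read 4.92 and 3.98 against 24.7 and 21.7, 5.21-fold higher from a very low level (log2 2.15, SE 0.462, adjusted p = 0.00762). Its beta chain H2-Ob read 55.2 and 39.8 against 48.3 and 81.0 (log2 0.41, adjusted p = 0.364), with overlapping groups. The 2 chains of the H2-DO dimer thus differed in whether they passed; whether their differences differ was not tested.

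The regulators of class II gave no call. Ciita (chr16:10480014-10531064) read 380 and 118 in the WT-labelled libraries against 274 and 273 in the KO-labelled ones (log2 0.36, SE 0.476, adjusted p = 0.550). As with Nlrc5, the WT-labelled pair enclosed the KO-labelled pair. The difference was 1.20 (adjusted p = 0.00976) without the first WT-labelled library and -0.47 (adjusted p = 0.0974) without the second. Rfx5, the subunit that binds the X box of class I and class II promoters, was nearly level at 797 and 794 against 709 and 748 (log2 -0.13, SE 0.107, adjusted p = 0.354).

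The ligands of T cell co-receptors split. Cd86, a ligand of CD28 and CTLA-4, read 116 and 125 under the WT label and 524 and 547 under the KO label, 4.44-fold higher (log2 2.14, SE 0.159, adjusted p = 7.77e-05). It had the smallest adjusted p of the tested members, and both pairs of replicates lay close together. Cd80, the other ligand of these receptors, rose from 4.92 and 13.9 to 56.8 and 73.5, 6.92-fold (log2 2.80, SE 0.509, adjusted p = 0.00370), and still passed without the first WT-labelled library at a log2 difference of 2.14 (adjusted p = 0.0106) and without the second at 3.47 (adjusted p = 0.00298). Cd274, the inhibitory ligand PD-L1, read 407 and 182 against 181 and 144 (log2 -0.75, SE 0.363, adjusted p = 0.125). With libraries left out in turn, it was called lower in 1 case, without the second WT-labelled library (log2 -1.33, adjusted p = 0.0105).
H2-Ke6, the dehydrogenase gene inside the complex, was lower, at 1758 and 1887 against 1197 and 1137, 1.56-fold (log2 -0.64, SE 0.0926, adjusted p = 0.00134). Of its 50-base words 70.5% also belong to an overlapping gene model, Gm20427, and the strand setting of the counts is not given in the sources used here.

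Set side by side, class II had the larger median difference. Of the 9 tested class II chain, loading and invariant chain genes, 6 were higher and 0 lower, with a median log2 difference of 1.05. Of 13 class I heavy chains 5 were higher and 1 lower, with a median of 0.39. These counts stand against 26.3% of all genes called higher and 24.9% lower. H2-Oa of class II and H2-Q10 of class I, both counted as higher, passed the filter only through the KO-labelled group. With a filter mean of at least 50, which left both out, 5 class II genes and 4 class I heavy chains were higher, against 27.5% of all genes. The 2 medians then differed by 0.75. In 7 of the 9 class II genes both KO-labelled libraries lay above both WT-labelled ones, which held for 39.8% of all genes. Heavy chains, light chain and loading genes of class I together had 11 higher and 1 lower of 19, with a median of 0.59. The medians of class II and of the class I heavy chains differed by 0.67 with all libraries, 1.20 without the first WT-labelled, 0.344 without the second WT-labelled, 0.383 without the first KO-labelled and 0.892 without the second KO-labelled library. Class II, loading genes included, stayed above the class I heavy chains alone in each case, and the size of the gap did not hold. The class I set with its light chain and loading genes was not followed through the left-out libraries. No test was made of this contrast, since the genes of a class are not replicates of a condition.

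Per kilobase of annotated exon, which allows levels of different genes to be compared, B2m stood first with a mean of 11545 normalized counts per kilobase in the WT-labelled and 18036 in the KO-labelled libraries. Cd74 (3110 and 6120) and H2-K1 (3051 and 4561) followed, and the order of these last 2 cannot be told apart in the WT-labelled group, where Cd74 read 4063 and 2158 and H2-K1 3480 and 2621 per kilobase. H2-D1 stood at 2077 and 2962, and the class II chains H2-Eb1 (1034 and 1970), H2-Ab1 (647 and 1494) and H2-Aa (543 and 879) lay below it. The transactivators were low, with Nlrc5 at 52.0 and 8.08 per kilobase in the WT-labelled against 23 and 26 in the KO-labelled libraries, and Ciita at 39.9 and 12.4 against 28.7 and 28.7. H2-DMb2 (7.06 and 63.8), H2-Oa (3.16 and 16.5) and Cd80 (2.54 and 17.6) were among the lowest of the tested genes.

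The 2 WT-labelled libraries differed from each other in these genes, mostly in 1 direction. The first read higher than the second in 31 of the 37 tested members, against 48.7% of all genes tested. In 9 members it was higher by at least 1 on the log2 scale, against 1.79% of all genes: Nlrc5 (6.43-fold), H2-DMb2 (3.96-fold), Ciita (3.21-fold), H2-Ab1 and H2-Eb1 (2.53-fold each), H2-Aa (2.30-fold), Cd274 (2.24-fold), Tap1 (2.18-fold) and H2-M3 (2.09-fold). Cd80 was lower by 1.33 on that scale. The KO-labelled pair had no member above 1 and 1 below, H2-Q10 at -1.23. Its class II chains and Cd74 were all higher in the first library, Cd74 by 1.60-fold. The median difference between replicates over the tested members was 0.41 in the WT-labelled and 0.07 in the KO-labelled group.

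**Figure D3:**
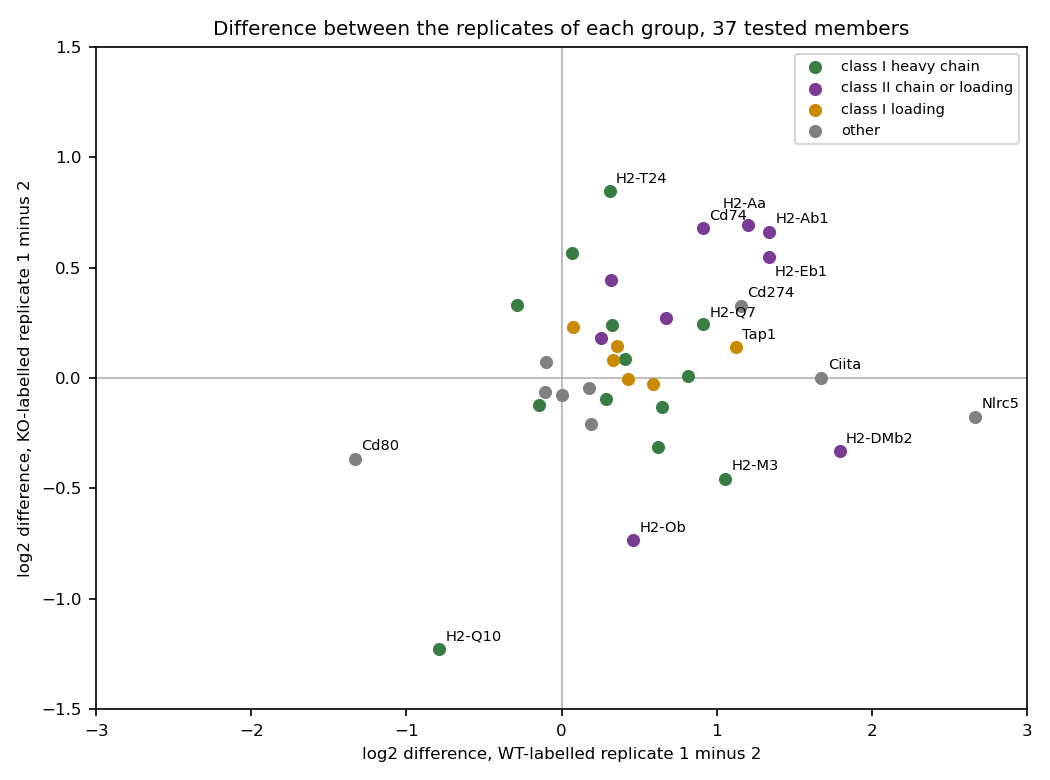
Each of the 37 tested genes by its log2 difference between the 2 WT-labelled libraries (horizontal axis) and between the 2 KO-labelled libraries (vertical axis). Most points lie right of 0, with Nlrc5 farthest at 2.67, and the class II chains and Cd74 lie up and to the right.

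Values of 13 members, chosen after they were seen, are plotted with each library left out. Leaving out 1 or the other WT-labelled library moved Nlrc5, H2-DMb2 and Ciita most among them. The points of H2-T24, H2-DMa, H2-DMb2 and Cd86 passed in each case, while those of Nlrc5 and Ciita crossed 0.

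**Figure D4:**
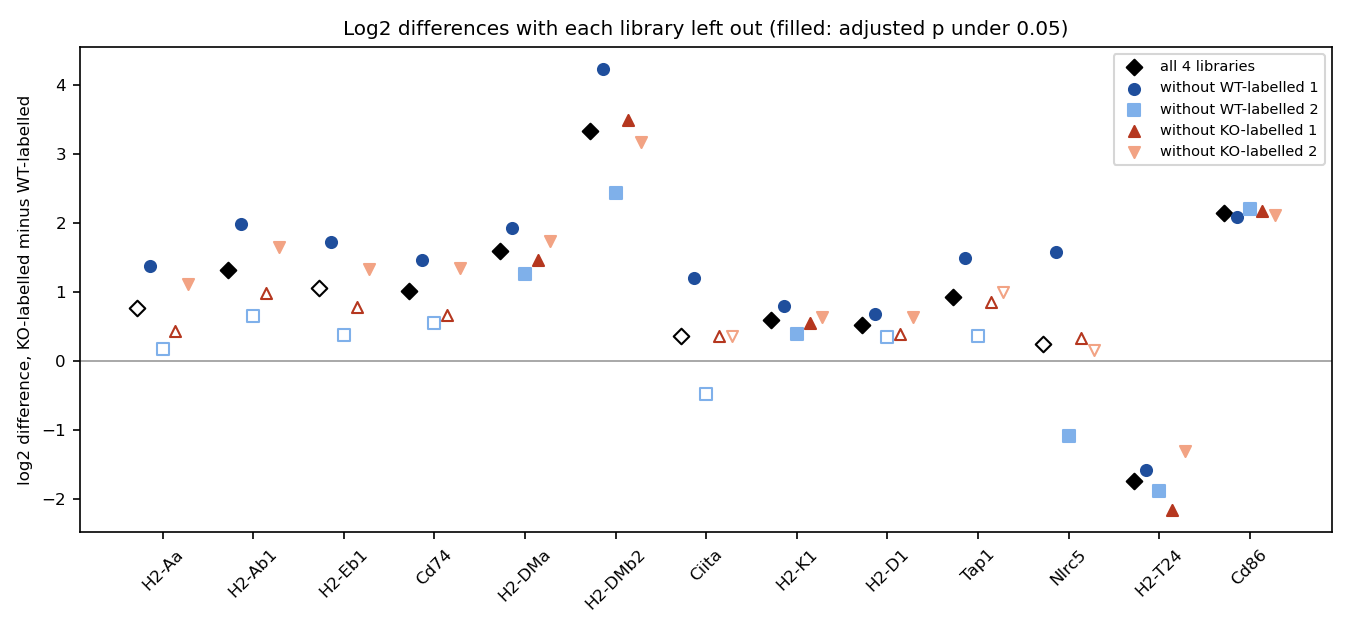
Log2 difference, KO-labelled minus WT-labelled, of 13 members with all 4 libraries (black diamonds) and with each library left out; filled symbols have an adjusted p under 0.05. Nlrc5 runs from -1.085 to 1.58 and Ciita from -0.47 to 1.20, whereas Cd86 stays near 2.14.

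Other genes of the same pathways were taken from lists, whose counts stand against 26.3% of all genes called higher and 24.9% lower. Of 12 further class I pathway genes (immunoproteasome, proteasome activator, chaperones and class I-like receptors), 11 were tested, 8 were higher and 0 lower, with a median of 0.50. The 4 with the smallest adjusted p were Psme2, a proteasome activator subunit (log2 0.83, adjusted p = 0.000558), Sec61a1, the translocon channel (0.54), the immunoproteasome subunit Psmb10 (0.89) and the IgG receptor chain Fcgrt (0.50). Psmb8 and Psmb9, the other immunoproteasome subunits, are named after their values were seen: Psmb8 read 799 and 376 against 1532 and 1362 (log2 1.40, adjusted p = 0.00887) and Psmb9 232 and 81.5 against 372 and 329 (log2 1.34, adjusted p = 0.0384). Both were higher in the first WT-labelled library than in the second, as were Tap1 and Nlrc5.

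Of 12 further class II pathway genes, all tested, 6 were higher and 2 lower, with a median of 0.29. The endosomal proteases that cut antigen and the invariant chain led: Ctss rose 9.04-fold, from 806 and 586 to 6135 and 6445 (log2 3.19, adjusted p = 1.38e-05), Lgmn 2.67-fold (adjusted p = 6.52e-05) and Ctsl 2.55-fold (adjusted p = 4.23e-05). Nfyc, a subunit of the NF-Y complex that binds the Y box, fell by 0.88 on the log2 scale (adjusted p = 0.000249).
Of 10 interferon-gamma signalling genes 9 were tested, 7 were higher and 0 lower, with a median of 0.82. The receptor chains Ifngr1 and Ifngr2 rose 3.17-fold (adjusted p = 4.01e-05) and 1.67-fold (adjusted p = 0.000485), the kinase Jak2 2.02-fold (adjusted p = 0.000413) and the transcription factor Irf8 1.77-fold (adjusted p = 0.00107). Ifng itself, below the filter and named after its values were seen, read 15.8 normalized counts in the first WT-labelled library and 0 in the other 3.
Of 8 further co-receptor ligands and receptors 5 were tested and 3 were higher: Cd276 2.27-fold (adjusted p = 4.44e-05), Vtcn1 3.89-fold (adjusted p = 0.000263) and Cd40 2.51-fold (adjusted p = 0.000504).

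Markers of the cells known to carry class II were counted in the same way, again against 26.3% of all genes called higher and 24.9% lower. The macrophage and monocyte list had 10 of 12 genes higher and 1 lower (Mertk), a median of 2.46, and summed counts of 13721 and 13936 in the WT-labelled libraries against 54314 and 53793 in the KO-labelled ones, 3.91-fold. The dendritic cell list had 9 of 11 tested genes higher and 1 lower (Zbtb46), with a median of 2.12. Its sums were 1100 and 1111 against 2222 and 2286, of which Zbtb46 made up 702, 734, 548 and 519. Pan-leukocyte markers had 6 of 6 higher, with 3006 and 2769 against 11972 and 12019. B and plasma cell markers had 3 of 5 tested genes higher and 1 lower (sums 879 and 930 against 2185 and 1983, of which Sdc1 made up 644, 697, 1940 and 1730). T and NK markers had 3 of 8 higher and 1 lower (314 and 233 against 689 and 887) and neutrophil markers 1 of 3 higher (196 and 163 against 281 and 360), shares near that of all genes. Of the markers called higher, Xcr1, Siglech, Fcer2a, Klrb1c and Cd3d had WT-labelled means under 10 (3.46, 6.94, 8.39, 1.48 and 5.92). They passed the filter only through the KO-labelled group, so the dendritic, B and T and NK counts hold genes favoured by the filter. No marker of these lists was at 0 in all 4 libraries, and the neutrophil markers Elane and Ly6g were at 0 in both WT-labelled ones. Of the kidney's own cell types, endothelial (8 of 8) and collecting duct markers (8 of 8) were all lower, thick ascending limb markers were lower in 4 of 6 and higher in 1, and fibroblast markers higher in 3 of 6. In bulk tissue, more cells of a type and more RNA per cell cannot be told apart, and the part of these cell types in the results for the MHC genes was not tested. The summed counts of class II chains (1.92-fold) and of class I heavy chains (1.33-fold) were higher by smaller folds than those of the macrophage and pan-leukocyte markers (4.15-fold for the latter). The summed dendritic cell markers, Zbtb46 included, were 2.04-fold higher.

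**Figure D5:**
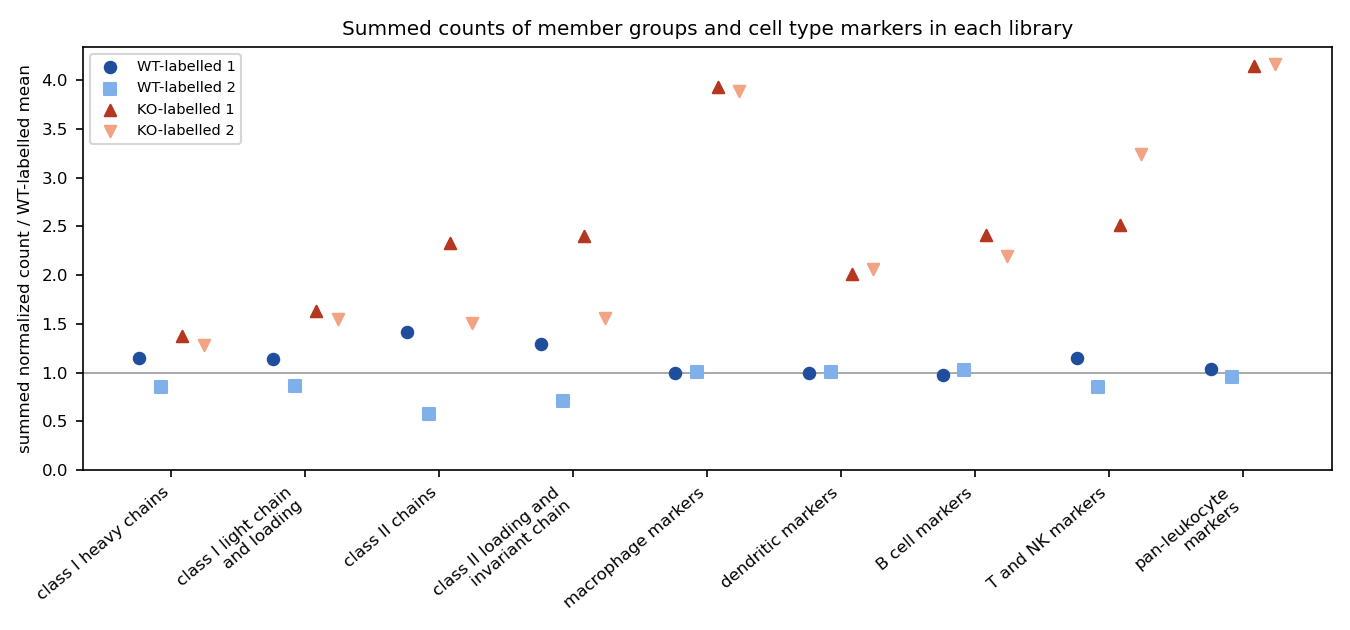
Summed normalized count of 4 groups of members and 5 marker lists in each library, divided by the mean of the 2 WT-labelled libraries. Macrophage, dendritic and pan-leukocyte markers are nearly level between the WT-labelled libraries, whereas the class II chains read 8141 and 3332 there.

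The difference between the WT-labelled libraries had its own marker values. Macrophage, dendritic and pan-leukocyte markers were close to level between them, with median log2 differences of 0.16, 0.06 and 0.08 (first minus second). The T and NK list had a median of 1.34, from few reads: Cd3g read 25.6 and 6.96, Cd3e 19.7 and 6.96, Nkg7 10.8 and 2.98, Ncr1 9.85 and 0.99, and Cd8b1 7.88 and 0. Cd4, Trac and Cd8a of the same list were close to level, at 142 and 116, 73.9 and 82.5, and 12.8 and 12.9. The part of these cells in the difference between the 2 libraries was not tested.

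Promoter windows of a hand-picked part of the members, H2-K1, H2-D1, H2-Q6, H2-Q7, H2-Aa, H2-Eb1 and H2-Oa, are shown. Of these, H2-Q6, H2-Q7, H2-Aa and H2-Eb1 were not called. Class I and class II promoters are known to share the SXY module, to which the Rfx5 complex and, through it, Nlrc5 or Ciita bind. Sequences are from RefSeq on GRCm38.p6, which gave 42 promoters for 39 of the 53 genes (250 bases before to 50 after the start). Capitals mark matches on either strand to 6 searched words, but only matches that end before the start are printed. Counts of promoters with a word cover the bases after the start as well. H2-K1 also has the Y box word, but its match reaches the start or lies past it and is not printed. The words were GGGATTCCC (NF-kB type), TTTCACTTC (interferon response element type), TGACGCG and TGACGTCA (X2 box types of class I and class II), CTGATTGG (Y box type) and AGCAAC (X1 box core); none of the matches printed overlaps another.
H2-K1, chr17:34000376-34000463, minus strand: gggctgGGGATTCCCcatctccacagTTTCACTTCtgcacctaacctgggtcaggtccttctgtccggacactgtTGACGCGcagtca
H2-D1, chr17:35262918-35263054, plus strand: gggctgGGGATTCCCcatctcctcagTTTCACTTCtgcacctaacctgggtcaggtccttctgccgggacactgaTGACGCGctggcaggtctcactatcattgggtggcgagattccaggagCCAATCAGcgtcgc
H2-Q6, chr17:35424672-35424808, plus strand: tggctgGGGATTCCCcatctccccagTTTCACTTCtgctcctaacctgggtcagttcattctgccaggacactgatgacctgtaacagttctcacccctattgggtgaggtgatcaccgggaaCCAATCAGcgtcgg
H2-Q7, chr17:35439017-35439152, plus strand: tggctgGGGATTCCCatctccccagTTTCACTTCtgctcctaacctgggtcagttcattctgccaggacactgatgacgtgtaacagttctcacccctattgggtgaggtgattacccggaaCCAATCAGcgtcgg
H2-Aa, chr17:34287861-34287903, minus strand: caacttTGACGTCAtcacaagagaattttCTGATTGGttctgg
H2-Eb1, chr17:34305769-34305818, plus strand: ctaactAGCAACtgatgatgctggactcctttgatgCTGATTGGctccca
H2-Oa, chr17:34092296-34092346, plus strand: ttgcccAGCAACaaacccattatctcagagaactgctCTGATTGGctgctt

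The NF-kB word occurred in 0.353% of all 32851 promoters and in 5 of the 42 member promoters, those of H2-K1 (2 annotated starts), H2-D1, H2-Q6 and H2-Q7. The interferon response word occurred in 0.505% of all and in 8 member promoters, of H2-D1, H2-K1, H2-M3, H2-Q10, H2-Q4, H2-Q6 and H2-Q7. The class I X2 word occurred in 1.91% of all and in 3 of the members', of H2-K1 and H2-D1. The Y box word occurred in 4.10% of all and in 20 of the members', that of AGCAAC in 14.8% and 8, and TGACGTCA in 1.79% and 1, H2-Aa. Of the members with the interferon word, H2-K1, H2-D1, H2-M3 and H2-Q10 were called higher, as were 26.3% of all genes tested. H2-Q10 passed the filter only through the KO-labelled group. The calls of H2-D1, H2-M3 and H2-Q10 were each lost with some of the libraries left out. H2-Q4, H2-Q6 and H2-Q7 were not called: H2-Q4 read higher in both KO-labelled libraries, and H2-Q6 and H2-Q7 lower. The part of these words in the differences was not tested. A match describes the letters of these windows and not binding.

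The 16 genes below the filter had values of at most 13.9 normalized counts. In all 4 libraries 8 were at 0 reads: H2-Ea, H2-M1, H2-M9, H2-M10.1, H2-M10.3, H2-M10.4, H2-M10.5 and H2-M11. H2-M10.2 had 2 and 3 reads in the WT-labelled and 0 in both KO-labelled libraries, and H2-M10.6 had 1 read in the first WT-labelled library alone. The rest with reads were H2-Eb2 (above), H2-Bl (8 and 12 against 7 and 3), H2-M5 (14 and 14 against 6 and 6), H2-M2 (2 and 2 against 11 and 7), H2-Q1 (1 and 1 against 2 and 0) and H2-T3 (0 and 1 against 1 and 0). The H2-M10 genes are known from the vomeronasal organ, and differences among counts this small were not tested.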

How the data were processed

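Messenger RNA of 4 kidney medulla samples was measured; groups come from the sample titles. The deposited signal values are normalized counts that the authors made by dividing reads by 1 size factor per library, read from the values, which are whole multiples of a step (0.985, 0.994, 1.07 and 0.942). Values of the second WT-labelled library were not whole before division by its step, which lies close to 1. The build was mm10 or GRCm38, and the tools HISAT2 2.2.1, featureCounts 2.0.1, fastp 0.20.1 and DESeq2 2.11.40.7, per the submitters' processing notes. For annotation, strand setting and multi-mapping reads, the answer is not given in the sources used here. Of 27179 Entrez IDs, 25275 matched a symbol in the RefSeq table of GRCm38.p6, whose coordinates are used. limma 3.58.1 (R 4.3.3, variance trend, two-sided, Benjamini-Hochberg) was fitted to log2(value + 1) of 16253 genes with a mean of at least 10, on all libraries, and was tested on simulated data. A fold is a ratio of group mean normalized counts; a log2 difference is on the log2(value + 1) scale and understates changes of low genes. edgeR 4.0.16 and DESeq2 1.42.0 on recovered reads were alternatives only. The members and all lists were chosen with earlier results of these data known. All tested members are named, and of each other pathway list up to 4 called genes with the smallest adjusted p. Limits for a count of 0 rest on 3 reads and cover counting error only. One gene of a pathway list is counted there but not reported by name here.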

Additional observations from a re-analysis of the deposited data

How the results depend on the processing

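The alternatives were 15 per result, and each of the 23 calls kept its sign in all of them. Of these, 13 stayed called in every alternative that tested them and 10 were lost at least once; 10 of the 14 members not called passed at least once. Without a variance trend 13 members were higher, 2 of them class I heavy chains and 3 class II. Of all genes, 21.1% were called higher and 20.3% lower in that fit. Class I heavy chains called lower numbered 2 without a filter, with quantile normalization and with the replicate block. Of all genes, 18.4%, 26.0% and 22.3% were called lower there. Without a filter the gap between class medians was 1.255. With the replicate block 23 members were higher and 4 lower, against 23.4% and 22.3% of all genes. Deviations of same-numbered libraries correlated at -0.0564 over 16253 genes. A correlation over all genes cannot decide whether the numbers pair the samples, and the labels do not say. Leaving out each library gave 14 to 24 members higher and 2 to 7 lower, 2 to 5 class I heavy chains higher and 1 to 4 lower, 5 to 6 loading genes higher, 3 to 8 class II genes higher, and a gap of 0.344 to 1.20; the lone library left in a group was taken to vary as the other 2 do. The share of member calls that were higher fell from 91.3% to 66.7% without the second WT-labelled library. Signs turned for Nlrc5 with edgeR (-0.3012), DESeq2 (-0.2994) and without the second WT-labelled library (-1.085, against 1.583 without the first), for Ciita without that library (-0.4744), for H2-T23 without the first WT-labelled library (0.1255, against -0.522 without the second) and for H2-T10 without the first KO-labelled one (-0.109, against 0.4556 without the second). The ratio of group mean counts of Nlrc5 was also below 1, at 0.815, whereas limma averaged log2 values. For the tools the cause was not tested. No scaling moved the median of all genes by more than 0.019 on the log2 scale. Identity of paralogs over proteins was not run; shared transcript words of 50 and 100 bases, chosen after seeing the data, were used, and at 100 bases H2-T22 shared 31.5% and H2-K1 0.957%.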
